A study of Mus musculus with 4 samples.

Results

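The 9 genes described here govern the entry of pyruvate into the mitochondrion and its conversion to acetyl-CoA: the mitochondrial pyruvate carrier genes Mpc1 and Mpc2, the pyruvate dehydrogenase complex genes Pdha1, Pdhb and Dlat, and the 4 pyruvate dehydrogenase kinase genes Pdk1, Pdk2, Pdk3 and Pdk4. They were taken by name, and all 9 were found among the 27998 genes of the count matrix, of which 17972 had at least 1 UMI (unique molecular identifier, the tag that counts an RNA molecule once). Small intestines of mice on a control diet (2 libraries) or a ketogenic diet (2 libraries) had been dissociated and sequenced as single cells with the 10x 3′ v2 chemistry. A ketogenic diet is high in fat and very low in carbohydrate. No treatment other than diet is named. The sources used here do not give the genotype, strain, age, time on the diet or number of mice behind a library. For that reason a p-value speaks only to the variation among these 4 libraries, part of which may be technical.

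The carrier is a pair of small inner-membrane proteins that act together and bring cytosolic pyruvate into the matrix. There the pyruvate dehydrogenase complex removes its carboxyl group on E1 (an alpha subunit encoded by Pdha1 and a beta subunit encoded by Pdhb) and hands the acetyl group to coenzyme A on E2 (encoded by Dlat). The kinases phosphorylate the alpha subunit and switch the complex off. Pdk4 is known as the kinase gene that fasting and fatty acids induce in muscle, heart and liver.

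The libraries held 3549 and 4896 control cells and 3194 and 3414 ketogenic cells, with 27316428 to 34106639 UMIs each, and every cell carried 1 of 7 epithelial annotations from the authors. Any library pair shared 10 to 26 cell barcodes, at most 0.733% of the smaller library. Each annotated type had the highest level of its own markers for 7 of 7 stem, 6 of 6 transit amplifying, 8 of 8 enterocyte, 6 of 6 Paneth, 7 of 7 enteroendocrine and 6 of 6 tuft markers, and for 5 of 7 goblet markers. The other 2 goblet markers were highest in the Paneth class, whose summed goblet markers (57004 to 98485 CPM) lay near those of goblet cells (72604 to 84964 CPM). Ketogenic library 1 stood apart: 8.14% of its cells had 50% or more mitochondrial UMIs, against 2.70% to 4.63% in the other libraries. Its enterocytes also had 9037 CPM of the 8 enterocyte markers summed, against 3687 to 4732 CPM in the others. The part of these differences in the results was not tested, and values of Pdk4 without this library are given beside its folds. CPM here means UMIs per 1000000 of a library's total for that cell type after TMM adjustment. The marker levels, and the ratios of Pdk4 and the markers to enterocytes, use totals without that adjustment. Each UMI counts a 3′ end, so levels of different genes can be set side by side without a correction for length.

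The comparison of the diets asked how the 9 genes differed in each cell type. Pdk4 was near absent on the control diet and present on the ketogenic diet, and Pdhb was lower on the ketogenic diet in enterocytes, transit amplifying cells and all cells together. Neither difference passed an adjusted p of 0.05 in edgeR's quasi-likelihood test. In the sum of all cells, 0 of 9 members were called, against 0.172% of all genes tested, and 2 members (Pdk4 and Pdhb) had an unadjusted p under 0.05, as did 1400 of all 12784 genes tested. DESeq2 called the same 2 genes there. Over the 12 alternatives in all cells, 19 to 407 of all genes were called. In enterocytes 0 of 9 were called against 0.18% of all genes. In stem cells 0 of 8 members tested were called (0.336% of all genes), in transit amplifying cells 0 of 8 (0.715%) and in goblet cells 0 of 8 (0.521%). In the Paneth class 0 of 4 were called (0.44%), in enteroendocrine cells 0 of 7 (0.0582%) and in tuft cells 0 of 8 (0.0144%). At an unadjusted p under 0.05, edgeR had 2 members in transit amplifying cells (927 of all 10069 genes), 2 in enterocytes (1159 of 11697) and 1 in goblet cells (895 of 9984), and 0 in the other 4 types. By position alone, both ketogenic libraries lay below both control libraries for 4 members in all cells (21.1% of all genes did so), and above them for 2 members (22.4%). In enterocytes 3 members lay below without overlap (20.5% of all genes). Among transit amplifying cells 2 lay below (19.6%) and 4 above (20.1%). The 4 were Pdha1, Pdk1, Pdk2 and Pdk4, of which Pdk4 was not tested there, while the shares cover tested genes only.

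**Figure D1:**
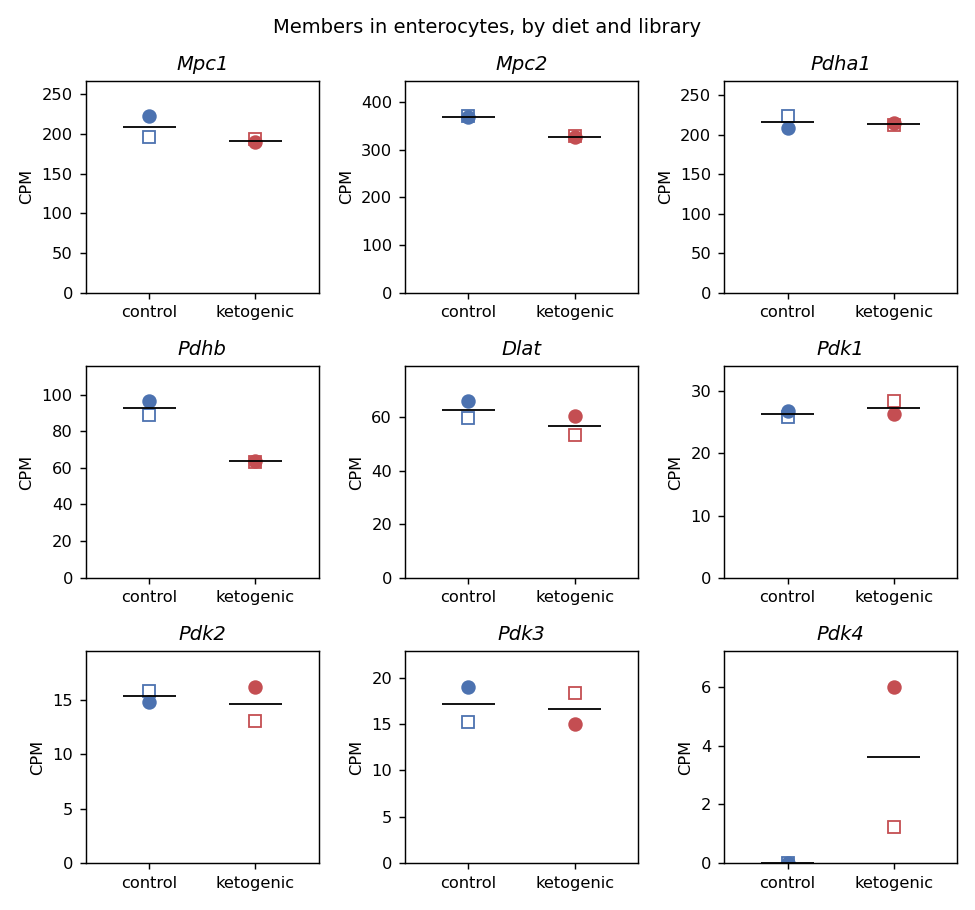
CPM of the 9 genes in enterocytes by diet; filled circles are library 1 and open squares library 2 of each diet, and horizontal lines are means of the 2 libraries. Pdhb falls into separate ranges (88.9 and 96.2 against 63.1 and 63.8 CPM), Pdk4 is at 0 in both control libraries, and Pdha1 overlaps.

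Mpc2 was the most abundant member in all cells, and neither carrier gene passed the test. In enterocytes Mpc2 measured 369 and 370 CPM on the control diet, against 326 and 328 CPM on the ketogenic diet. These ranges do not overlap, yet the log2 fold change of -0.18 ± 0.10 (SE) had an adjusted p of 0.590 in edgeR. In all cells the Mpc2 difference was -0.21 ± 0.09 with an adjusted p of 0.462. Mpc1, its partner in the carrier, measured 222 and 196 CPM in control enterocytes and 190 and 193 CPM in ketogenic enterocytes (log2 fold change -0.13 ± 0.11, adjusted p = 0.718 in edgeR). In stem cells the carriers overlapped between the diets, with Mpc1 between 112 and 149 CPM and Mpc2 between 194 and 249 CPM.

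Of the 2 subunit genes of the E1 enzyme, Pdhb lay lower on the ketogenic diet and Pdha1 overlapped in enterocytes. Pdhb, the beta subunit, measured 96.2 and 88.9 CPM in control enterocytes and 63.8 and 63.1 CPM in ketogenic enterocytes. Both ketogenic values lay below both control values, with means of 92.5 ± 5.22 and 63.5 ± 0.501 CPM (SD, n = 2 each). The log2 fold change was -0.54 ± 0.10, with an unadjusted p of 0.00112 and an adjusted p of 0.128 in edgeR. It passed the threshold with DESeq2 (adjusted p = 0.0233) and with no filter on low counts (0.0237). It did not pass in the other alternatives that kept all 4 libraries. On leaving out 1 library the log2 fold change ran from -0.62 to -0.49. In transit amplifying cells Pdhb measured 79.4 and 81.1 CPM on the control diet and 56.4 and 63.6 CPM on the ketogenic diet (log2 fold change -0.42 ± 0.11, adjusted p = 0.138 in edgeR), and it passed with no filter (0.0290) and with a replicate block (0.0379). DESeq2 gave an adjusted p of 0.998 there, the highest of 11 alternatives. In all cells the log2 fold change was -0.49 ± 0.09 (adjusted p = 0.138). Pdhb passed there with DESeq2 (0.00343) and with no filter (0.0165), a setting that called 407 of all genes, against 22 with the filter. On leaving out 1 library its log2 fold change ran from -0.55 to -0.45. The highest adjusted p in all cells was 0.593, without ketogenic library 1. In goblet cells it was -0.28 ± 0.13 (adjusted p = 0.544). Stem cells showed overlapping values of 53.1 and 57.8 CPM against 50.7 and 55.2 CPM (log2 fold change -0.06 ± 0.15).

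Pdha1, the alpha subunit that the kinases phosphorylate, measured 208 and 224 CPM in control enterocytes and 216 and 213 CPM in ketogenic enterocytes. The diets overlapped, and the log2 fold change was -0.01 ± 0.10. In transit amplifying cells Pdha1 was higher on the ketogenic diet (234 and 212 against 191 and 202 CPM; log2 fold change 0.18 ± 0.10, adjusted p = 0.604 in edgeR). Set against each other within a library, where no scaling enters, Pdhb made up 31.6% and 28.4% of the Pdha1 and Pdhb UMIs in control enterocytes and 22.8% and 22.9% in ketogenic enterocytes. Transit amplifying cells had shares of 29.3% and 28.7% against 19.4% and 23.1%. Stem cells had 19.8% and 19.5% against 17.7% and 18.5%. The share was lower in both ketogenic libraries in 6 of 7 cell types. Exact binomial intervals of the diets overlapped in stem, goblet, Paneth and tuft cells. Enteroendocrine cells were the exception, with 32.6% and 24.3% against 29.8% and 18.8%. A lower share can also come from a higher Pdha1. In the Paneth class the log2 fold change was -0.01 ± 0.39 for Pdhb and 0.49 ± 0.23 for Pdha1. For tuft cells the values were -0.19 ± 0.19 and 0.27 ± 0.15, and for goblet cells -0.28 ± 0.13 and 0.14 ± 0.08. None of these passed the threshold in edgeR. The Pdhb share was chosen after the values were seen, and with 2 libraries against 2 the smallest exact permutation p, two-sided, would be 0.333.

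**Figure D2:**
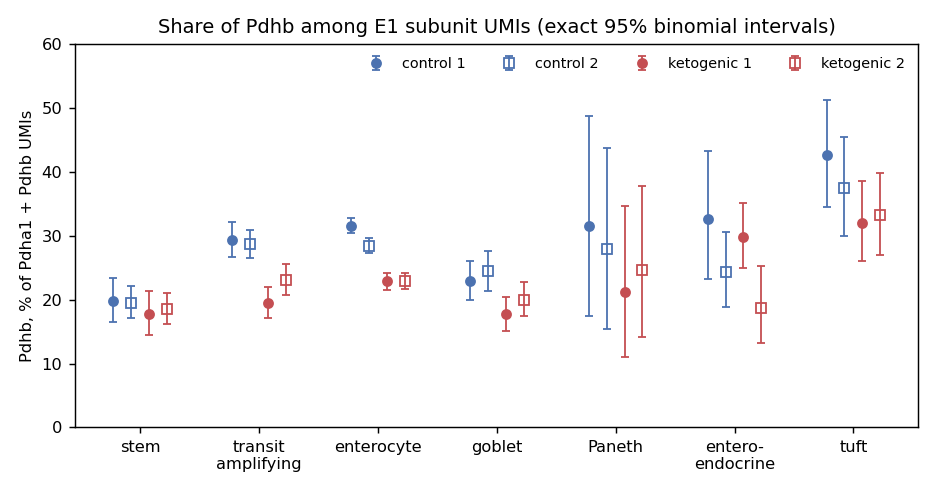
Pdhb as a percent of Pdha1 and Pdhb UMIs (y axis) by cell type (x axis); points are libraries, bars exact 95% binomial intervals, which cover counting error only. The ketogenic points of enterocytes (22.8% and 22.9%) and transit amplifying cells (19.4% and 23.1%) lie below the control points, and the intervals of stem, goblet, Paneth and tuft cells overlap between the diets.

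The E2 gene Dlat measured 65.8 and 59.7 CPM in control enterocytes and 60.2 and 53.2 CPM in ketogenic enterocytes, and the diets overlapped. Its log2 fold change was -0.15 ± 0.12 there and -0.22 ± 0.09 in all cells (adjusted p = 0.472 in edgeR).

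The test of whether the diet effect differed between enterocytes and stem cells used 8 sums with the library as a block. Pdhb had an interaction of -0.50 ± 0.17 on the log2 scale, with an adjusted p of 0.428 in edgeR, and 0 of 9 members passed (0.259% of all genes). Over 8 alternatives the interaction of Pdhb ran from -0.65, without control library 2, to -0.36. Between enterocytes and transit amplifying cells, 0 of 9 members differed (0.0871% of all genes), with -0.13 ± 0.12 for Pdhb. A difference in the Pdhb response between these cell types was therefore not established with all 4 libraries.

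**Figure D3:**
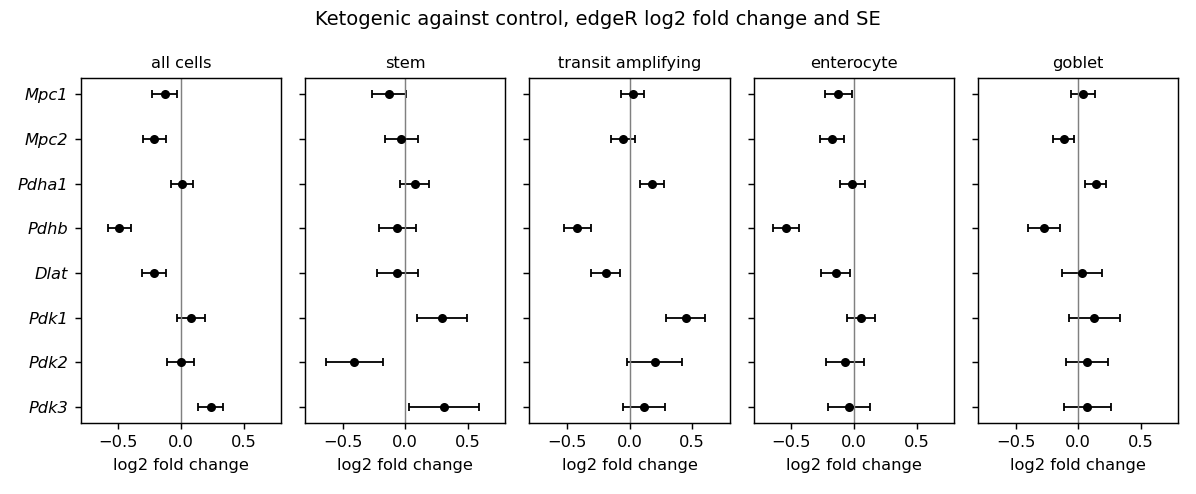
Log2 fold changes (x axis, ketogenic against control, edgeR, bars are SE) of 8 of the 9 genes in all cells and 4 cell types; Pdk4, whose control counts are near 0, is left out. Pdhb lies at -0.49 in all cells, -0.42 in transit amplifying cells and -0.54 in enterocytes, and at -0.06 in stem cells.

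Among the kinases, the 3 that were expressed on both diets stayed near their control levels in enterocytes. Pdk1, a kinase gene that hypoxia induces, measured 26.8 and 25.8 CPM against 26.3 and 28.3 CPM (log2 fold change 0.05 ± 0.11). Pdk2, the kinase gene expressed in most tissues, measured 14.8 and 15.9 CPM against 16.3 and 13.1 CPM (log2 fold change -0.07 ± 0.15). Pdk3 measured 19.0 and 15.3 CPM against 14.95 and 18.4 CPM (log2 fold change -0.04 ± 0.17). The diets overlapped for each of these 3 genes in enterocytes. In transit amplifying cells Pdk1 was 23.2 and 27.8 CPM on the control diet and 31.6 and 38.1 CPM on the ketogenic diet. That log2 fold change of 0.45 ± 0.15 had an unadjusted p of 0.0126 and an adjusted p of 0.339 in edgeR. The Pdk1 effect in enterocytes minus that in transit amplifying cells was -0.39 ± 0.16 (adjusted p = 0.816 in edgeR).

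Pdk4 is annotated on chromosome 6 (mm10, 5483351 to 5496309, minus strand). Its sequence before the annotated start is shown because Pdk4 had the largest difference between the diets. It is taken from RefSeq (build GRCm38.p6) and covers chr6:5496310-5496528, minus strand. Capitals mark the single match to CCAAT, searched on both strands.
Pdk4: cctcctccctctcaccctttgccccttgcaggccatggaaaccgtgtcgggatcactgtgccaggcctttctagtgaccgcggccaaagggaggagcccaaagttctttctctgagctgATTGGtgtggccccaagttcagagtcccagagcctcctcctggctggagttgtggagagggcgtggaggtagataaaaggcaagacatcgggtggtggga
In the 250 bases before the RefSeq start, Pdk4 had 0 matches to AGGTCA (a nuclear receptor element), GTAAACA (a forkhead core) or GGGCGG (a GC box), each on both strands. Of the 32851 promoter windows of that length, 14.0% held AGGTCA, 3.17% GTAAACA, 32.7% GGGCGG and 33.9% CCAAT. Pdhb, the member with the lowest log2 fold change in all cells and enterocytes, is annotated on chromosome 14 (mm10, 8165996 to 8173025, minus strand). The matching stretch is chr14:8173026-8173242, minus strand, with 2 GC boxes and 2 CCAAT matches in capitals.
Pdhb: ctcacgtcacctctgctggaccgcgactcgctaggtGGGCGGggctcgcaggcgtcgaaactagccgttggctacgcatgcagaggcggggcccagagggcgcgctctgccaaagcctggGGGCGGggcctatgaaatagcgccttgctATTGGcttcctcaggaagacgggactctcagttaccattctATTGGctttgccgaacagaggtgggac
These motifs were chosen after earlier results were known. A match to such letters is a description of the sequence and says nothing of a factor's binding.

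Pdk4 gave 0 and 0 UMIs in control enterocytes and 87 and 21 UMIs in ketogenic enterocytes, or 6.02 and 1.24 CPM. With 3 counts taken as the floor for the control group as a whole, Pdk4 was at least 43.2-fold higher. The ketogenic libraries differed several-fold from each other, and without ketogenic library 1 the bound was 15.6-fold. It was 75.6-fold without ketogenic library 2, and 22.2-fold and 21.0-fold without control library 1 or 2. The last 2 are lower only because the same floor of 3 counts is set against a smaller control total. The adjusted p was 0.164 in edgeR with all 4 libraries. It passed the threshold with DESeq2 (0.0271), with no filter on low counts (0.000254) and with a replicate block (0.0137). The highest of 11 alternatives was 0.255, without the 5% of cells with the most UMIs. In all cells Pdk4 had 1 and 3 UMIs on the control diet and 132 and 39 on the ketogenic diet, a ratio of 46.4 with a counting interval of 17.8 to 172. Without ketogenic library 1 the ratio was 19.8, without ketogenic library 2 it was 77.0, and without control library 2 it was 86.6. Its adjusted p was 0.121 in edgeR, 3.67e-06 in DESeq2, 3.97e-05 with no filter, 0.0471 with a replicate block and 0.0315 without ketogenic library 2. Its highest value was 0.154, in cells under 10% mitochondrial UMIs.

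Pdk4 was also found outside enterocytes on the ketogenic diet. Stem cells gave 1 and 1 UMIs against 7 and 5, a ratio of 6.13 (counting interval 1.36 to 56.4). Without ketogenic library 1 it was 3.81 (0.623 to 39.96) and without control library 2 it was 4.61 (0.682 to 197), and both intervals include no change. Without ketogenic library 2 it was 10.9. Transit amplifying cells gave 0 and 1 against 16 and 6, a ratio of 26.5 (4.29 to 1096). That ratio was 13.2 without ketogenic library 1, 42.7 without ketogenic library 2 and 15.2 without control library 1. Without control library 2, which leaves 0 control UMIs, Pdk4 was at least 3.77-fold higher. Goblet cells gave 0 and 0 against 14 and 5, at least 5.66-fold higher. The bound was 2.90-fold and 8.57-fold without ketogenic library 1 or 2, and 2.79-fold and 2.87-fold without control library 1 or 2. Here too the last 2 are lower only because the floor is set against a smaller control total. Enteroendocrine cells gave 0 and 1 against 6 and 2, a ratio of 4.95 whose interval of 0.664 to 220 includes no change. The Paneth class had 0 UMIs in all 4 libraries and tuft cells 2 in a single ketogenic library, so no fold is given. In stem, transit amplifying and goblet cells Pdk4 did not pass the filter on low counts and was not tested. With no filter its adjusted p in transit amplifying cells was 0.00136 in edgeR, and Pdk4 did not pass in stem or goblet cells.

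Few ketogenic cells held a Pdk4 UMI. Among enterocytes, 0 of 2156 and 0 of 2771 control cells did, which allows shares of up to 0.139% and 0.108%. In the ketogenic libraries 77 of 1748 (4.41%, exact 95% binomial interval 3.49% to 5.48%) and 21 of 1799 (1.17%, 0.724% to 1.78%) did. The median depth of these enterocytes was 8413.5 and 7342 UMIs on the control diet and 9323 and 9629 on the ketogenic diet. After each cell was thinned to 2000 UMIs, the shares were 0%, 0%, 1.14% and 0%. That step left out 126 shallower cells of control library 2. In ketogenic library 1 the unthinned share was 2.76% in stem cells, 3.90% in transit amplifying cells and 2.73% in goblet cells. In ketogenic library 2 it was 1.09%, 1.42% and 1.03%. The Paneth class, at 0 of 55 and 0 of 42 ketogenic cells, allows shares of up to 5.45% and 7.14%, each set by 3 cells of the total.

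**Figure D4:**
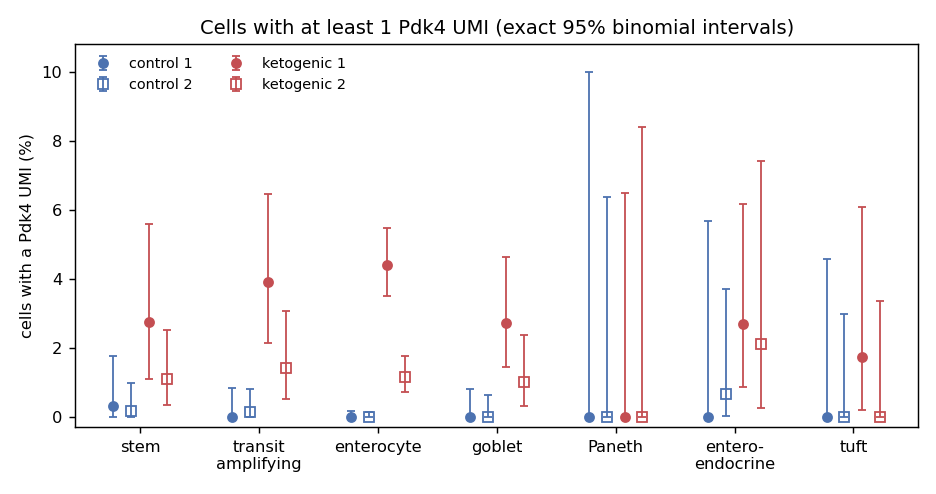
Percent of cells with at least 1 Pdk4 UMI (y axis) by cell type (x axis); points are libraries and bars exact 95% binomial intervals for counting error only. Ketogenic enterocytes lie at 4.41% and 1.17% and control enterocytes at 0%.

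RNA that is free in the droplets can place UMIs of one cell type in another, so Pdk4 was set beside the 8 enterocyte markers. In ketogenic library 1 the Pdk4 CPM of stem cells was 0.702 of that in enterocytes, and the markers had ratios of 0.0505 to 0.557 with a median of 0.0941. In transit amplifying cells Pdk4 stood at 0.73 and the highest marker at 0.558. In goblet cells Pdk4 stood at 0.565 and the highest marker at 0.214. In ketogenic library 2 the Pdk4 ratios were 1.15, 1.08 and 0.903 in the same types, and the highest marker ratios 0.619, 0.711 and 0.209. These Pdk4 ratios rest on 5 to 16 UMIs each. In enteroendocrine cells Pdk4 stood at 0.834 and 2.62 in the ketogenic libraries, below the marker Sis at 3.27 and 3.90. In tuft cells it stood at 0.393 and 0, and in the Paneth class at 0 in both. The part of free RNA in these values was not tested. Within enterocytes Pdk4 was found at each level of mitochondrial RNA: in ketogenic library 1 it stood at 6.10 UMIs per 1000000 in cells under 10%, 5.49 from 10% to 25% and 4.74 above. In ketogenic library 2 the values were 1.16, 1.38 and 2.08, and every control value was 0. They rest on 65, 12 and 10 Pdk4 UMIs in ketogenic library 1, and on only 14, 4 and 3 in ketogenic library 2.

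Pdk4 remained a minor part of the kinase pool. It was 9.48% and 2.03% of the UMIs of the 4 kinase genes in ketogenic enterocytes, where Pdk1 held 41.4% and 46.4%. Kinase UMIs summed to 60.7 and 57.0 CPM in control enterocytes and 63.5 and 61.0 CPM in ketogenic enterocytes.

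Enteroendocrine cells, the hormone-secreting cells of the epithelium, had a kinase make-up of their own. Pdk3 measured 167, 138, 191 and 188 CPM there (control libraries 1 and 2, then ketogenic libraries 1 and 2), a mean of 171 ± 24.7 CPM (SD, n = 4). In the other 6 types its means ran from 15.1 to 22.5 CPM, and the highest single library was at 29.3 CPM. Pdk3 made up 81.2%, 80.7%, 80.9% and 80.1% of the kinase UMIs of enteroendocrine cells. It was 31.4%, 26.8%, 23.5% and 30.1% in enterocytes. These levels are a description with no test, since the cell types were annotated from the same cells. Between the diets, Pdk3 in enteroendocrine cells had a log2 fold change of 0.34 ± 0.18 (adjusted p = 1.00 in edgeR). In all cells Pdk3 was higher on the ketogenic diet (25.1 and 22.7 against 20.6 and 20.0 CPM), with a log2 fold change of 0.24 ± 0.10 and an adjusted p of 0.471. Enteroendocrine cells supplied 10.7% and 14.3% of all Pdk3 UMIs on the control diet, and 33.2% and 15.5% on the ketogenic diet. With the same mix of cell types in every library the log2 fold change was 0.10.

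**Figure D5:**
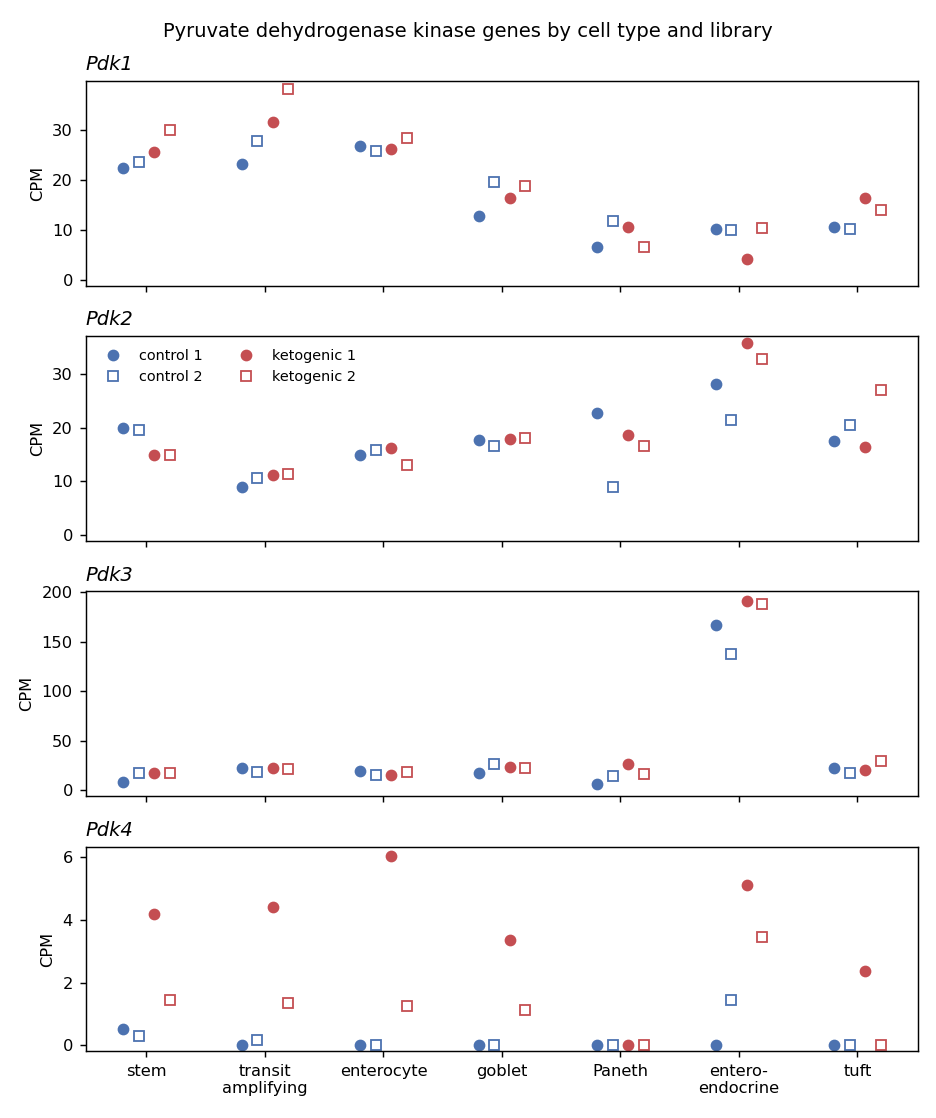
CPM of the 4 kinase genes (y axes, each with its own scale) by cell type (x axis); filled circles are library 1 and open squares library 2 of each diet. Pdk3 lies at 138 to 191 CPM in enteroendocrine cells, and Pdk4 at 1.24 and 6.02 CPM in ketogenic enterocytes and at 0 in control enterocytes.

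The other members had broader patterns. Pdk1 was highest in transit amplifying cells, enterocytes and stem cells (means of 30.2, 26.8 and 25.5 CPM, whose ranges overlap), and next in goblet cells (16.9 CPM), below all 3. Pdk2 was highest in enteroendocrine cells at 29.5 CPM, overlapping tuft cells at 20.4 CPM, and lowest in transit amplifying cells at 10.5 CPM. Mpc2 led in enterocytes (348 CPM) and transit amplifying cells (324 CPM), which overlap, ahead of tuft cells (253 CPM). Mpc1 led in tuft cells (228 CPM) and enterocytes (200 CPM), which overlap. Pdha1 was highest in stem cells (233 CPM), with overlapping ranges in enterocytes, enteroendocrine cells and transit amplifying cells. Pdhb led in tuft cells (91.4 CPM) and Dlat in enterocytes (59.7 CPM), each overlapping the next type. The Paneth class had the lowest mean for Mpc1, Mpc2, Pdha1 and Pdhb, with ranges that overlap the next type for Mpc1 and Pdhb.

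Enterocytes were also split at the median of a score of villus tip genes minus lower villus genes, which is a range and not a cell type. Of all enterocytes, 13.6% lay within 0.25 of that cut. The higher-scoring part held 46.3% and 46.6% of control enterocytes and 54.3% and 55.4% of ketogenic enterocytes. Pdhb measured 104 and 101 CPM against 69.4 and 74.1 CPM in lower-scoring enterocytes, and 88.5 and 75.5 CPM against 60.2 and 54.8 CPM in higher-scoring enterocytes. The log2 fold changes were alike, at -0.51 ± 0.12 (adjusted p = 0.163 in edgeR) and -0.51 ± 0.13 (adjusted p = 0.406). Of the members tested, 0 of 8 were called in the lower-scoring part (0.495% of all genes) and 0 of 9 in the higher-scoring part (0.00903%). In every library Mpc1, Mpc2, Pdhb and Dlat were higher in the lower-scoring part, and Pdha1 was higher in the other. Mpc2, for example, ran from 372 to 425 CPM in lower-scoring and from 288 to 330 CPM in higher-scoring enterocytes, and Pdha1 from 191 to 209 and from 221 to 238 CPM. Pdk4 had 33 and 7 UMIs in lower-scoring and 54 and 14 in higher-scoring ketogenic enterocytes, and 0 in both control libraries. In CPM, which allows for the different totals, these ketogenic values were 5.69 and 0.953 against 6.26 and 1.47.

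Among genes that make or use pyruvate, 10 of 11 were tested in enterocytes: 1 rose and 1 fell. Pkm, the pyruvate kinase gene of most tissues, fell from 580 and 544 CPM to 216 and 231 CPM (log2 fold change -1.33 ± 0.11, adjusted p = 0.0101 in edgeR). Me1, cytosolic malic enzyme, which makes pyruvate and NADPH from malate, rose from 5.51 and 3.98 CPM to 55.8 and 28.6 CPM (3.15 ± 0.34, adjusted p = 0.0366). Both genes were called in the same direction in all cells and in transit amplifying cells, and Me1 also rose in goblet cells. Pklr, the liver-type pyruvate kinase gene, was at 37.9 and 28.4 CPM against 20.9 and 15.3 CPM (adjusted p = 0.201). Ldha, a lactate dehydrogenase gene, was at 1273 and 1042 CPM against 750.2 and 775 CPM (adjusted p = 0.181). In stem cells 0 of 7 tested genes of this list were called, and Pkm measured 174 and 239 CPM against 150 and 161 CPM (adjusted p = 0.402 in edgeR). Me1 measured 1.53 and 0 CPM against 4.77 and 5.26 CPM in stem cells (log2 fold change 3.03 ± 0.72, adjusted p = 0.0727 in edgeR).

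Of the other complex and phosphatase genes, 0 of 5 were called in enterocytes, and Dld, the E3 subunit, measured 110 and 97.3 CPM against 87.8 and 85.5 CPM (adjusted p = 0.499 in edgeR). None of the 5 lipoate attachment genes was called. Of the 14 citric acid cycle genes, 0 were called. The ketogenic value was lower for 5 of them with an unadjusted p below 0.05, a cut that 1159 of all 11697 genes passed in either direction, and the list's median log2 fold change was -0.22, against 0.02 over all genes tested. In stem cells the median of that list was 0.00. Of 7 tested genes of the sister dehydrogenase complexes 0 were called in enterocytes, as were 0 of 4 genes of pyruvate and lactate transport across the plasma membrane.

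Of the 10 known regulators of the kinase genes, 0 were called in enterocytes. Ppara, a fatty acid receptor that drives Pdk4 in liver, measured 9.22 and 8.64 CPM against 14.6 and 11.9 CPM (log2 fold change 0.57 ± 0.16, adjusted p = 0.292 in edgeR). Ppard, a related receptor, measured 60.4 and 49.0 CPM against 27.1 and 33.8 CPM (-0.84 ± 0.16, adjusted p = 0.123). Pparg and Rxra overlapped between the diets. Among the 6 other acetyl-CoA genes, Slc25a20, the mitochondrial carnitine and acylcarnitine carrier, rose in transit amplifying cells (15.2 and 13.1 against 34.1 and 27.9 CPM, adjusted p = 0.00833 in edgeR) and in goblet cells (11.6 and 15.3 against 27.0 and 23.6 CPM, adjusted p = 0.0424). In enterocytes it measured 21.5 and 19.9 CPM against 66.0 and 38.5 CPM (adjusted p = 0.120). Ketogenic library 1 again had the higher value, as it did for Me1 and Pdk4.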

How the data were processed

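Single-cell 3′ libraries of mouse small intestine (2 control, 2 ketogenic) were used in the form the authors deposited: a matrix of raw UMI counts (genes by cells) and a cell table naming the library and cell type. Cell Ranger 2.1.0 and mm10 are named in the submitters' processing notes, and the sources used here do not describe the cell filters or annotation method. Counts were summed per library and cell type, since cells are not replicates, and tested with edgeR 4.0.16 in R 4.3.3 (quasi-likelihood, TMM, filterByExpr by diet, Benjamini-Hochberg over all genes tested, threshold 0.05). DESeq2 1.42.0, other scalings and filters, cells under 10% mitochondrial UMIs, sums without the 5% of cells with the most UMIs (doublets were not called), leaving out single libraries and a replicate block were alternatives. Groups came from the diet label. The members, lists and tests were chosen with earlier results of these data known. Named genes are the 9 members, list genes that were called, and up to 4 per list in list order for enterocytes and stem cells. The fits were tested on simulated data. Intervals and floors (3 counts) cover counting error only. Promoter letters come from RefSeq (GRCm38.p6) and positions from GENCODE M21, for all 9 members.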

Additional observations from a re-analysis of the deposited data

Results flagged for a closer look

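Dlat values differed in sign between enteroendocrine and transit amplifying cells, and only the enteroendocrine value lay within its SE of 0. Both ketogenic libraries were above both control libraries in enteroendocrine cells (log2 ratio of mean CPM 0.557) and below them in transit amplifying cells. The log2 fold changes were 0.46 ± 0.47 (SE; 6 and 10 UMIs against 19 and 16) and -0.19 ± 0.12, and the difference between the types was not tested. Pdk2 was lower in both ketogenic libraries in stem cells (19.9 and 19.7 against 14.9 and 14.9 CPM) and higher in both in transit amplifying cells (log2 ratio 0.211), goblet cells (0.0698) and enteroendocrine cells (0.462). These 3 differences from stem cells were not tested. None of the single-type differences of Dlat or Pdk2 passed the threshold in edgeR (Pdk2 in stem cells: adjusted p = 0.837).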

How the results depend on the processing

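Of 877 recomputed log2 fold changes of the members other than Pdk4 (91 results), 793 kept their direction and side of the threshold. Another 11 passed it newly and 73 changed sign, 54 of them on leaving out a library. Pdk4 was followed by its adjusted p, which passed newly with DESeq2, no filter and the replicate block in all cells and in enterocytes. The values that changed sign belonged to 40 results, none had an adjusted p under 0.05, and the largest had 0.31 with all libraries; Pdhb did not change sign in all cells, transit amplifying cells or enterocytes. The number of members called was 0 in each comparison. It became 2 in all cells with DESeq2 or no filter and 1 with the replicate block, and no filter called 407 of all genes there. In transit amplifying cells it became 2 with no filter and 1 with the block. In enterocytes it became 2 with DESeq2 or no filter and 1 with the block. Leaving out 1 library gave 0 to 1 in all cells, 0 to 1 in transit amplifying cells, 0 to 2 in enterocytes, 0 to 1 in lower-scoring and 0 to 2 in higher-scoring enterocytes, and 0 to 2 in the enterocyte minus stem interaction, where Pdk3 also passed without control library 2 (-1.27, adjusted p = 0.0335 in edgeR). The members called were otherwise Pdhb and Pdk4. The labels do not say whether the replicate numbers pair the libraries. Correlations of same-numbered deviations ran from -0.037 to 0.083, and with 2 libraries per diet they cannot decide it. On leaving out 1 library, the adjusted p of Pdk4 in edgeR ran from 0.0315 to 0.113 in all cells, 0.0184 to 0.224 in enterocytes and 0.0354 to 0.235 in higher-scoring enterocytes, and its lower bound in enterocytes from 15.6 to 75.6. The share of enterocytes with a Pdk4 UMI was 6.54% in ketogenic library 1 among cells under 10% mitochondrial UMIs, and 2.14% and 0.494% in the ketogenic libraries after thinning to 4000 UMIs. The number of all genes called ran from 7 to 760 in enterocytes (21 with all libraries), from 19 to 407 in all cells (22), from 12 to 100 in stem cells (32), from 37 to 290 in transit amplifying cells (72), from 24 to 189 in goblet cells (52), from 2 to 57 in the Paneth class (13), from 2 to 94 in enteroendocrine cells (4), from 0 to 37 in tuft cells (1), from 8 to 404 and 1 to 803 in lower- and higher-scoring enterocytes (53 and 1), and from 14 to 358 and 4 to 220 for the stem and transit amplifying interactions (30 and 10). The highest numbers came without control library 2 in enterocytes, both their parts, stem, transit amplifying and enteroendocrine cells and both interactions. In all cells the highest came with no filter. The cause was not tested.

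Where leaving out a library changed the sign, the log2 fold changes had these lowest and highest values. In all cells they were Pdha1 -0.045 to 0.043, Pdk1 -0.047 to 0.18 and Pdk2 -0.10 to 0.076. In stem cells they were Mpc1 -0.30 to 0.022, Mpc2 -0.19 to 0.18, Pdhb -0.14 to 0.018, Dlat -0.12 to 0.018 and Pdk3 -0.045 to 1.08. In transit amplifying cells they were Mpc1 -0.011 to 0.058, Mpc2 -0.13 to 0.025 and Pdk3 -0.016 to 0.24. In enterocytes they were Pdha1 -0.063 to 0.020, Pdk1 -0.0015 to 0.10, Pdk2 -0.24 to 0.082 and Pdk3 -0.21 to 0.13. In goblet cells they were Mpc1 -0.043 to 0.11, Dlat -0.15 to 0.19, Pdk1 -0.14 to 0.46 and Pdk3 -0.20 to 0.40. In the Paneth class they were Mpc2 -0.035 to 0.32 and Pdhb -0.31 to 0.34. In enteroendocrine cells they were Mpc1 -0.12 to 0.27, Mpc2 -0.19 to 0.076, Pdha1 -0.16 to 0.46 and Pdhb -0.44 to 0.12. In tuft cells they were Mpc1 -0.15 to 0.16, Mpc2 -0.25 to 0.017, Dlat -0.21 to 0.15 and Pdk2 -0.21 to 0.49. In lower-scoring enterocytes they were Mpc1 -0.093 to 0.031, Dlat -0.16 to 0.051 and Pdk2 -0.16 to 0.20. In higher-scoring enterocytes they were Pdha1 -0.041 to 0.063 and Pdk3 -0.10 to 0.37. In the enterocyte minus stem interaction they were Mpc1 -0.27 to 0.21, Mpc2 -0.39 to 0.028, Dlat -0.29 to 0.037 and Pdk3 -1.27 to 0.23. In the enterocyte minus transit amplifying interaction they were Dlat -0.037 to 0.13 and Pdk3 -0.32 to 0.022. Sign changes in the other alternatives were as follows. With DESeq2, the log2 fold change was, for Pdha1 in all cells -0.0010, Pdhb in the Paneth class 0.018, Mpc1 in tuft cells -0.0075. With RLE size factors, the log2 fold change was, for Pdha1 in all cells -0.00098, Mpc1 in tuft cells -0.0041. With no filter, the log2 fold change was, for Pdha1 in all cells -0.0024. Without the 5% of cells with the most UMIs, the log2 fold change was, for Pdk2 in all cells 0.0069, Mpc1 in the enterocyte minus stem interaction 0.045. In cells under 10% mitochondrial UMIs, the log2 fold change was, for Pdhb in stem cells 0.022, Mpc1 in transit amplifying cells -0.0012, Pdha1 in enterocytes 0.024, Pdk3 in enterocytes 0.013, Dlat in tuft cells 0.032, Mpc1 in lower-scoring enterocytes 0.0058, Pdk2 in lower-scoring enterocytes -0.017. Thinned to the lowest total, the log2 fold change was, for Pdhb in the Paneth class 0.19, Mpc2 in enteroendocrine cells 0.13, Dlat in tuft cells 0.10. With the replicate block, the log2 fold change was, for Pdhb in the Paneth class 0.0054.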

Other observations

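The carrier genes were not in a fixed proportion. Mpc2 UMIs per Mpc1 UMI ran from 1.66 to 1.89 in enterocytes over the 4 libraries, from 1.15 to 1.42 in goblet cells and from 0.944 to 1.42 in tuft cells. The kinase genes summed to 0.536 to 0.870 UMIs per E1 UMI (Pdha1 and Pdhb) in enteroendocrine cells, against 0.182 to 0.227 in enterocytes and 0.190 to 0.217 in stem cells.

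Over the 28 sums of 7 types and 4 libraries, the genes whose log2 CPM was most like Mpc2 were Cox5a (Pearson r = 0.968), Ndufb6 (0.968) and Mdh1 (0.960). Those most like Pdha1 were Wfdc15b (0.953), Sgk1 (0.905) and Npm1 (0.887), and those most like Pdk1 were Aprt (0.935), Alg5 (0.927) and C1qbp (0.924). Pdk3, added after its levels were seen, was most like Neurod2 (0.944), Scgn (0.937) and Neurod1 (0.937). The sums share libraries and depth, so these are descriptions. Pdk4, with 175 UMIs in all, lay under the minimum of 200 UMIs for this comparison.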
